A study of Mus musculus with 4 samples.

Results

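Genes of blood stem and progenitor cells, most of them regulators, that are described as shut off when T cells commit were followed in sorted mouse DN3 thymocytes. The 10 genes were chosen by name: Lmo2, Lyl1, Tal1, Hhex, Bcl11a, Gfi1b, Nfe2, Meis1, Lmo1 and Cd34. All 10 were found among the 23285 genes of the deposited table, and 5 of them (Nfe2, Bcl11a, Lyl1, Lmo1 and Hhex) reached the mean of 1 FPKM over the libraries that the main test required. FPKM gives fragments per length of transcript and per size of library. DN3 thymocytes are CD4-negative, CD8-negative, CD25-positive T cell precursors. The donors were fetal liver cells, labelled C57BL/6, that were either wild type (WT) or Gata3(g/g), a genotype labelled as a hypomorph of the transcription factor gene Gata3. They were injected into irradiated recipient mice, and DN3 cells were sorted 16 weeks later, so all 4 libraries come from reconstituted thymi. Each genotype had 2 libraries, the replicates 1 sharing one sequencing run (run 1) and the replicates 2 another (run 2). Whether the libraries of a genotype came from separate animals, whether any host cells were in the sort, and how old the recipients were is not stated in the labels, so p-values concern the spread between these libraries.

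In stem and progenitor cells, LMO2 is a LIM-only bridging protein that holds basic helix-loop-helix factors (TAL1 or LYL1 with an E protein), a GATA factor and LDB1 together on DNA. Thymic immigrants express many of these genes, and the DN2 to DN3 transition is described as the stage of their silencing. Persistent expression of LMO1, LMO2, TAL1 or LYL1 is a classical feature of T cell leukaemia. HHEX is a homeodomain factor of early progenitors, BCL11A a zinc-finger repressor of B cell and stem cell programmes, GFI1B and NFE2 are factors of the erythroid and megakaryocytic lineages, MEIS1 is a HOX cofactor, and CD34 is a surface sialomucin of progenitors.

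Because the genotypes differ in a GATA factor gene and several members act through E-boxes, the 250 bases upstream of RefSeq transcript starts (GRCm38.p6, which is mm10) were searched on both strands for the GATA letters AGATAA or TGATAA and the E-box letters CANNTG, and both kinds of match are in capitals. RefSeq's table held 10 windows for 8 members, and Nfe2 and Lmo2 were not among them. Shown are Cd34, Lyl1, whose genotypes did not overlap, and the windows of Gfi1b and Tal1 that held GATA letters. Cd34 was below the level of the main test and was called between the genotypes only in some of the other fits given below.
Cd34, chr1:194938571-194938820, plus strand: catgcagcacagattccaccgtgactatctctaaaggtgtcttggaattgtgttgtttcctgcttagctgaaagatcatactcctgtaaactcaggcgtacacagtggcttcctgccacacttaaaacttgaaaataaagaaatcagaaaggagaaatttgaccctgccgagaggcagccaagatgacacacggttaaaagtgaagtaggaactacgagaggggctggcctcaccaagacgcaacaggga
Lyl1, chr8:84701207-84701456, plus strand: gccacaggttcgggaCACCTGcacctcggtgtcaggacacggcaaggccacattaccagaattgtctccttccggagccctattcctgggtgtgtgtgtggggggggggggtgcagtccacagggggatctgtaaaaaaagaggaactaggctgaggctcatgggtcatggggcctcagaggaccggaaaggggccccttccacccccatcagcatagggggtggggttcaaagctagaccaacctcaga
Gfi1b, chr2:28621983-28622232, minus strand: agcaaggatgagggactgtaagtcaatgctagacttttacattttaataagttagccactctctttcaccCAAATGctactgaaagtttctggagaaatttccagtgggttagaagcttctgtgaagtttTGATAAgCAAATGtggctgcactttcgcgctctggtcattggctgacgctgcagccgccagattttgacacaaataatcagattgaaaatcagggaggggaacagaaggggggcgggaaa
Tal1, chr4:115056176-115056425, plus strand: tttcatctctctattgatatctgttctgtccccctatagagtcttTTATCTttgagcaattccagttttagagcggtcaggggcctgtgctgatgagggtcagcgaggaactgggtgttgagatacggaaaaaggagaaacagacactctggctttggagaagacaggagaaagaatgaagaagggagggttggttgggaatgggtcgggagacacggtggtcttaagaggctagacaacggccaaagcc
GATA letters were in 2 of the 10 member windows, and in 16.6% of all 32851 windows of that length. E-box letters were in 6 of 10, against 66.2% of all windows. The Cd34 window held neither. Neither kind was in the Hhex window or the other Tal1 window, which are not shown. Like those of Lyl1, the Hhex genotypes did not overlap. The Tal1 window shown lies upstream of the Tal1 locus in the authors' table, which starts at 115059527 on chromosome 4. These matches describe letters in a window and say nothing of binding.

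The libraries held 14331705 to 26901913 fragments assigned to genes, and 3 fragments, taken as the floor of counting, correspond to 0.112 to 0.209 CPM (counts scaled to library size). Markers of the DN3 stage were abundant, with Il2ra, which encodes CD25, at 277 and 261 FPKM in WT and 569 and 492 FPKM in Gata3(g/g). Il2ra was called higher in Gata3(g/g) with the replicate number as a block (0.98 ± 0.181, SE, on the log2 scale, edgeR adjusted p = 0.00262), and not on genotype alone. Gata3 itself stood at 62.4 and 58.5 FPKM in WT, and at 120 and 96.1 FPKM where the label was Gata3(g/g), so the transcript was not lower there and every direction below rests on the labels. Erythroid transcripts differed by run: Hbb-b1, which encodes a beta globin, stood at 0.663 and 2.15 FPKM in the run 1 libraries and at 237 and 224 FPKM in the run 2 libraries. Runs and the samples in them cannot be told apart.

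**Figure D1:**
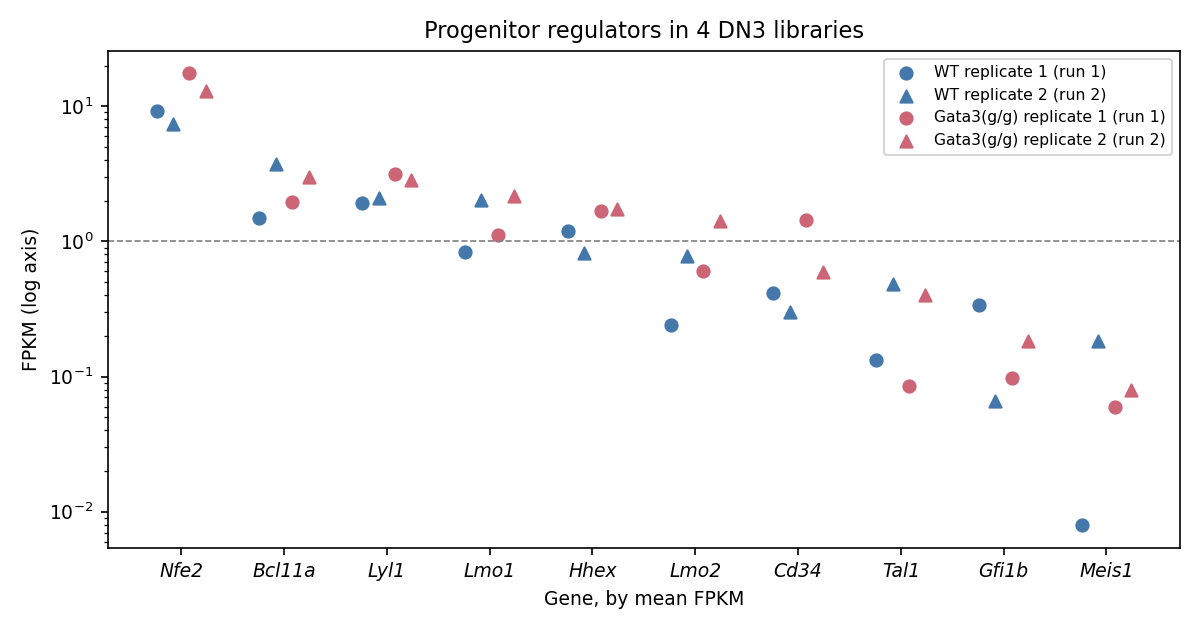
FPKM (log axis) of each member in the 4 libraries, genes ordered by their mean, with the dashed line at the 1 FPKM required for the main test. Nfe2 stands above the others at 7.44 to 17.5 FPKM, and the 2 genotypes separate for Nfe2, Lyl1, Hhex and Cd34.

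Nfe2 was the one member at a substantial level, with a mean of 11.8 FPKM over the 4 libraries (7.44 to 17.5), rank 4295 of 23282 genes. The members were thus not all silent in these DN3 libraries. Bcl11a followed at 2.55 FPKM, Lyl1 at 2.50, Lmo1 at 1.53, Hhex at 1.36, Lmo2 at 0.758, Cd34 at 0.687, Tal1 at 0.277, Gfi1b at 0.172 and Meis1 at 0.0829 FPKM. In that order of mean level per length only the step from Nfe2 to Bcl11a exceeded the spread over libraries. Each other neighbouring pair had overlapping ranges. Meis1 and Gfi1b rested on 36 and 42 fragments over all 4 libraries, against 2923 for Nfe2, so their differences were measured with little precision.

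Across the members, 4 of 10 (Nfe2, Lyl1, Hhex and Cd34) had both libraries labelled Gata3(g/g) above both WT libraries in FPKM and 0 had them below. Among the 13576 genes with at least 10 fragments in at least 2 libraries, which include all 10 members, 14.7% were placed above in this way and 13.9% below. Within runs, 7 of 10 members had higher log2 CPM in Gata3(g/g) in both runs, against 32.4% of those genes. Tal1 was lower in both. The remaining Gfi1b and Meis1 changed sign between the runs. The median log2 fold change of the 5 members tested in the model without the run term was 0.58, against 0.00 over all 10224 genes tested, a description of a list chosen with earlier results of these data known.

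By edgeR's quasi-likelihood test on genotype alone, 0 of the 5 tested members passed at an adjusted p of 0.05, as did 0 (0%) of the 10224 genes. Nfe2 alone had an unadjusted p under 0.05, as did 3.84% of all genes. DESeq2 and limma on genotype alone called 0 members, beside 88 and 5 of all 10224 genes. With the replicate number as a block, which removes the difference between runs that the genotypes share, edgeR called 6.90% of genes, 3.90% higher and 2.99% lower in Gata3(g/g), and 1 of the 5 members, Nfe2. Over the genes with at least 10 fragments the model with the block called 5.27%, 2.88% of genes as higher, and among the 10 members Nfe2 and Cd34. Values with the block are given below for the 5 tested members from the first of these fits and for the others from the second. The authors' deposited table lists 7 members as tested, of which 1, Nfe2, had a q-value under 0.05, as did 4.10% of the genes tested there.

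**Figure D2:**
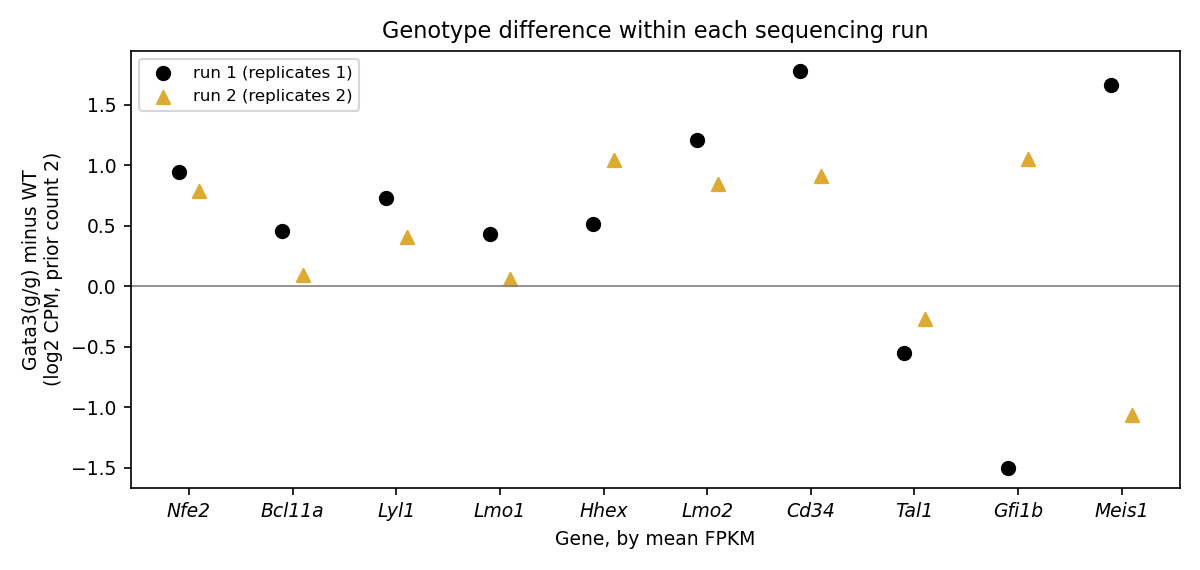
Difference between the libraries labelled Gata3(g/g) and WT in log2 CPM (prior count 2) for each member, as 1 point per sequencing run. Nfe2 lies at 0.94 and 0.79 in the 2 runs and Cd34 at 1.78 and 0.91, whereas Gfi1b and Meis1 lie on opposite sides of 0.

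Nfe2, which encodes the p45 subunit of the NF-E2 activator of globin and platelet genes, stood at 9.19 and 7.44 FPKM in WT and at 17.5 and 13.0 FPKM in Gata3(g/g). Both libraries of the latter were above both of the former, on 305 to 1386 fragments. The group means were 8.31 ± 1.24 and 15.2 ± 3.18 FPKM (SD, n = 2 each). Nfe2 rose with the block, by 0.87 ± 0.145 (SE) on the log2 scale (edgeR adjusted p = 0.00108), and DESeq2 with the block gave an adjusted p of 0.0042. In limma with the block it was 0.122, and on genotype alone edgeR gave a log2 fold change of 0.88 ± 0.257 (SE) with an unadjusted p of 0.0184 that did not survive adjustment. In the authors' deposited table the Nfe2 q-value was 0.00526. Its mm10 position is chromosome 15, 103248218 to 103255416. Nfe2 was lower in run 2 than in run 1 in both genotypes, with run differences of −0.27 and −0.43 in log2 CPM. The erythroid markers summed higher in run 2, and the part of erythroid cells in the Nfe2 level was not tested.

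Cd34 measured 0.418 and 0.302 FPKM in WT and 1.44 and 0.592 FPKM in Gata3(g/g), from 38, 19, 178 and 48 fragments. The genotypes did not overlap, but the library labelled Gata3(g/g) replicate 1 stood well above the other 3. Cd34 rose with the block, by 1.44 ± 0.399 (SE) on the log2 scale (edgeR adjusted p = 0.0436 over the genes with at least 10 fragments, and 0.00364 with no filter on low values, where 4.63% of genes were called). The ratio of CPM was 3.68 in run 1 (95% counting interval 2.58 to 5.38) and 2.01 in run 2 (1.16 to 3.62). Without Gata3(g/g) replicate 1 the log2 fold change on genotype alone was 0.64, against 1.52 with all libraries, and neither passed by edgeR. The authors' deposited table gave Cd34 a q-value of 0.118. Its locus in that table, chromosome 1 from 194938821 to 194976959, takes in the antisense gene Gm16897, which measured at most 0.142 FPKM in any library. Strand use in the counting is not stated.

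None of the LIM and helix-loop-helix members Lyl1, Lmo2, Tal1 and Lmo1 passed the test between genotypes. Lyl1, a partner of LMO2 in progenitors, measured 1.91 and 2.1 FPKM in WT and 3.16 and 2.83 FPKM in Gata3(g/g), with no overlap. Its log2 fold change was 0.59 ± 0.259 (SE) with the block and did not pass (edgeR adjusted p = 0.205). The means were 2.01 ± 0.134 and 3.0 ± 0.233 FPKM (SD, n = 2 each), and the counting interval of the CPM ratio lay above 1 in both runs (1.40 to 2.16 and 1.06 to 1.80). Lyl1, on chromosome 8 from 84701457 to 84704716, lies within Nfix on the opposite strand in GENCODE M21. Nfix measured 6.85 and 10.9 FPKM in WT and 6.92 and 9.87 FPKM in Gata3(g/g), with a log2 fold change of −0.07.

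Lmo2, the bridging factor, measured 0.242 and 0.779 FPKM in WT and 0.601 and 1.41 FPKM in Gata3(g/g). The genotypes overlapped, since the WT library of run 2 was above the Gata3(g/g) library of run 1, but within each run Lmo2 was higher in Gata3(g/g). The CPM ratio was 2.60 in run 1 (13 against 43 fragments, interval 1.37 to 5.27) and 1.89 in run 2 (29 against 69, interval 1.21 to 3.03). These intervals cover counting error only. With the block the log2 fold change was 1.07 ± 0.549 (SE) and did not pass (edgeR adjusted p = 0.333).

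Tal1, the founding helix-loop-helix factor of haematopoiesis, was the one member at lower CPM in Gata3(g/g) in both runs. It measured 0.133 and 0.485 FPKM in WT and 0.0856 and 0.403 FPKM in Gata3(g/g), on 18 to 57 fragments. Both run 2 libraries were above both run 1 libraries. The genotype difference was −0.43 ± 0.540 (SE) on the log2 scale with the block (edgeR adjusted p = 0.772), and both counting intervals of the CPM ratio held 1.

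Lmo1, the paralog of LMO2 that substitutes for it in T cell leukaemia, was more abundant per length than Lmo2 in each library. It measured 0.835 and 2.03 FPKM in WT and 1.12 and 2.15 FPKM in Gata3(g/g), high in run 2 and low in run 1 for either genotype. The edgeR log2 fold change with the block, 0.24 ± 0.404 (SE), did not pass (adjusted p = 0.786), and the within-run values were 0.43 and 0.06 in runs 1 and 2.

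Hhex measured 1.20 and 0.821 FPKM in WT and 1.69 and 1.74 FPKM in Gata3(g/g). The 2 Gata3(g/g) libraries lay close together and above both WT libraries, with means of 1.71 ± 0.0338 and 1.01 ± 0.265 FPKM (SD, n = 2 each). The CPM ratio was 1.48 in run 1 (interval 1.11 to 1.98) and 2.16 in run 2 (1.46 to 3.26). With the block, edgeR put the log2 fold change at 0.77 ± 0.334 (SE), with an unadjusted p of 0.0352 and an adjusted p of 0.197, so Hhex did not pass. The gene lies on chromosome 19 from 37434841 to 37440731.

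Bcl11a gave different directions on different scales. In FPKM it measured 1.48 and 3.75 in WT and 1.97 and 2.98 in Gata3(g/g), higher than WT in run 1 and lower in run 2, and the authors' deposited table put it at a log2 fold change of −0.08 (q = 0.926). In fragments it stood at 230 and 243 in WT and 417 and 337 in Gata3(g/g), which after scaling to library size was higher than WT in both runs, by 0.46 and 0.09 on the log2 scale. With the block, edgeR put Bcl11a at 0.28 ± 0.199 (SE) and an adjusted p of 0.464. The CPM behind each unit of FPKM, which grows with the transcript length the authors' software assigned, was 7.37 and 4.52 in WT and 7.88 and 6.26 in Gata3(g/g). Its highest value was 1.74 times its lowest, a spread matched or exceeded by 0.405% of 13320 genes, whose median was 1.05. For the other 9 members this ratio was 1.05 to 1.08. The deposited values are per gene, so which Bcl11a transcripts were counted was not tested.

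**Figure D3:**
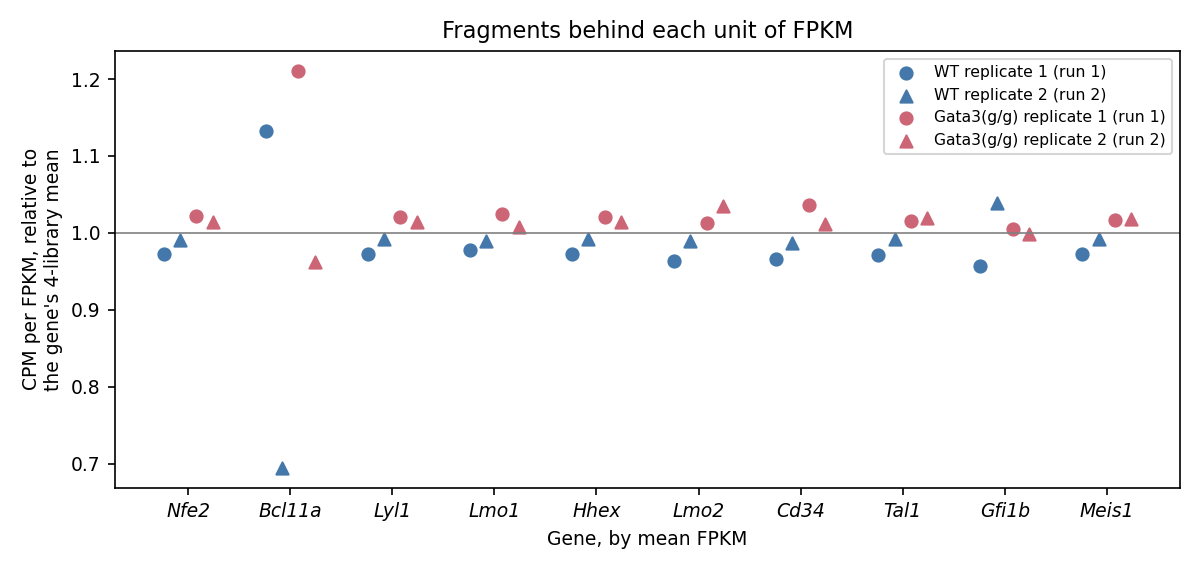
CPM per unit of FPKM in each library, relative to the mean of the 4 libraries for that gene. Bcl11a spreads by a factor of 1.74, with WT replicate 2 lowest, whereas each other member spreads by at most 1.08.

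Gfi1b and Meis1 were near the floor. Gfi1b, which encodes a transcriptional repressor that erythroid and megakaryocytic differentiation require, had 21 and 3 fragments in WT and 8 and 10 in Gata3(g/g), or 0.340, 0.0663, 0.0973 and 0.183 FPKM. The genotype difference was −1.50 in run 1 and 1.05 in run 2. Meis1 had 1 and 16 fragments in WT and 10 and 9 in Gata3(g/g), or 0.00794, 0.184, 0.0597 and 0.0801 FPKM, and differed by 1.66 in run 1 and −1.06 in run 2. WT replicate 1 and WT replicate 2 were at opposite ends for both genes, with the Gata3(g/g) libraries between them. With the block the log2 fold changes were −0.43 ± 1.24 for Gfi1b and 0.26 ± 1.35 for Meis1 (SE, adjusted p = 0.919 and 0.956 by edgeR), so no change was detectable at this depth.

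The difference between runs was also taken from the model with the block, a comparison added after the values were seen. By this run term, 2 of 10 members differed between runs, against 28.8% of the 13576 genes (12.2% as higher in run 2). Tal1 was higher in run 2 by 1.98 ± 0.550 (SE, adjusted p = 0.0124 by edgeR) on the log2 scale, and Nfe2 was lower in run 2, at −0.44 ± 0.148 (SE, adjusted p = 0.0336). Lmo2 stood at 1.38 ± 0.549 (SE, adjusted p = 0.0688) and Lmo1 at 1.01 ± 0.433 (SE, adjusted p = 0.0895) without passing. Cd34 had a run difference of −1.02 ± 0.397 (SE, adjusted p = 0.0626), also without passing. Meis1 (1.89 ± 1.35, SE) and Gfi1b (−0.64 ± 1.24, SE) had run differences with wide errors that did not pass, nor did Lyl1 (−0.09), Hhex (−0.29) and Bcl11a (0.37). Whether the run and genotype terms of a member differ in size was not tested.

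**Figure D4:**
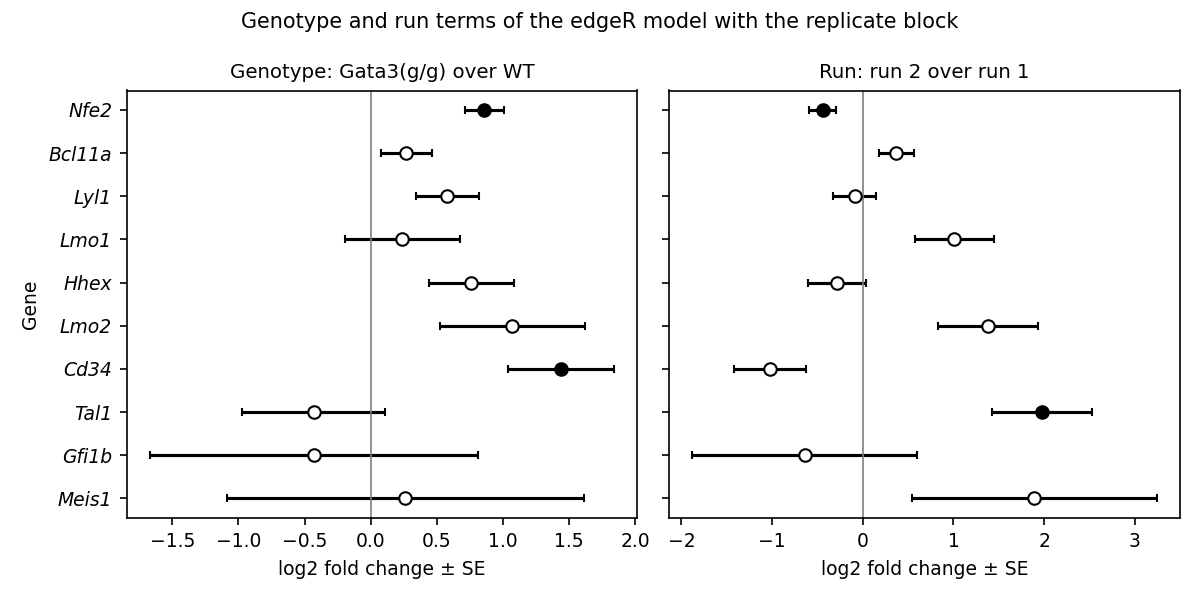
Log2 fold change ± SE of the genotype (left) and of the run (right) in the edgeR model with the replicate block, over genes with at least 10 fragments in at least 2 libraries. Filled points have an adjusted p under 0.05, which are Nfe2 and Cd34 for the genotype and Nfe2 and Tal1 for the run.

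The sums of the erythroid and myeloid markers were higher in run 2. The 13 measured erythroid markers summed to 2.83 and 3.35 FPKM in the run 1 libraries and to 467 and 596 FPKM in the run 2 libraries, with Hba-a1 and Hba-a2 among those at 0 in run 1. Of these markers Hba-a2 was called between genotypes with the block (1.46 ± 0.376, SE, edgeR adjusted p = 0.0275), from 10.7 FPKM in WT and 30.4 FPKM in Gata3(g/g) in run 2. The other 7 erythroid markers tested did not pass, among them Hba-a1 (log2 fold change 0.21) and Gata1 (−0.71). As Hba-a2 was at 0 in run 1, its call rests on the 2 libraries of run 2. Tal1, which erythroid precursors express, was high in the same 2 libraries, and the part of such cells in its level was not tested. The 11 myeloid markers summed to 11.3 and 19.2 FPKM in run 1 and 50.7 and 63.7 FPKM in run 2, where S100a8 made up most of the sum. In run 1 most of it was Lyz2, the lysozyme gene of macrophages and neutrophils, which moved with the genotype. Lyz2 stood at 9.93 and 4.2 FPKM in WT and 18.7 and 13.6 FPKM in Gata3(g/g), and rose with the block by 1.27 ± 0.198 (SE) on the log2 scale (edgeR adjusted p = 0.00061). The other myeloid markers tested, S100a8 (−0.08, edgeR adjusted p = 0.94) and S100a9 (−0.8, edgeR adjusted p = 0.425), did not rise with the block. The part of myeloid cells in the rises of Cd34, Nfe2 and Sfpi1 was not tested. The 10 megakaryocyte and platelet markers summed to between 1.61 and 3.20 FPKM in every library, and Pf4, the defining platelet factor, was at or below 0.0594 FPKM. In bulk samples, fewer cells of a type and less RNA per cell cannot be told apart.

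The summed levels of 4 marker lists placed the genotypes apart without overlap. The 10 mast and basophil markers summed to 43.6 and 50.5 FPKM in WT and 3.02 and 2.12 FPKM in Gata3(g/g), nearly all of it Cpa3, with Fcer1a and Mcpt4 at 0 in every library. The 9 plasmacytoid dendritic markers, a cell type that also expresses Bcl11a, summed to 391 and 360 FPKM in WT and 714 and 754 FPKM in Gata3(g/g), mostly through Ly6d. Ly6d (1.22 ± 0.142, SE) and Cox6a2 (3.23 ± 0.294, SE) rose with the block. Of the others, Irf8 (2.76 and 1.9 FPKM in WT against 1.87 and 1.02) and Bst2 (89.4 and 96.2 FPKM against 79.7 and 73.3) were lower in Gata3(g/g) without passing. Lair1 (3.53 and 4.31 FPKM in WT against 4.9 and 5.87) and Tcf4 (3.32 and 3.82 FPKM against 3.9 and 5.02) were higher without passing. Siglech was at or below 0.0889 FPKM. Endothelium expresses Cd34, Lyl1 and Tal1. Its 9 markers summed to 24.9 and 20.0 FPKM in WT and 28.8 and 25.5 FPKM in Gata3(g/g), mostly Pecam1, with Kdr at or below 0.0346 FPKM. The 10 B cell markers summed to 32.1 FPKM in either WT library and 40.6 and 34.6 FPKM in Gata3(g/g), nearly all Cd79b, with Pax5 at or below 0.0274 FPKM. Cd79b itself overlapped between the genotypes (29.8 and 29.1 FPKM in WT, 37 and 29.6 FPKM in Gata3(g/g)), so it alone did not set the sums apart. The 9 stromal markers lay between 11.5 and 16.3 FPKM. The part of these cells in the members' levels was not tested.

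**Figure D5:**
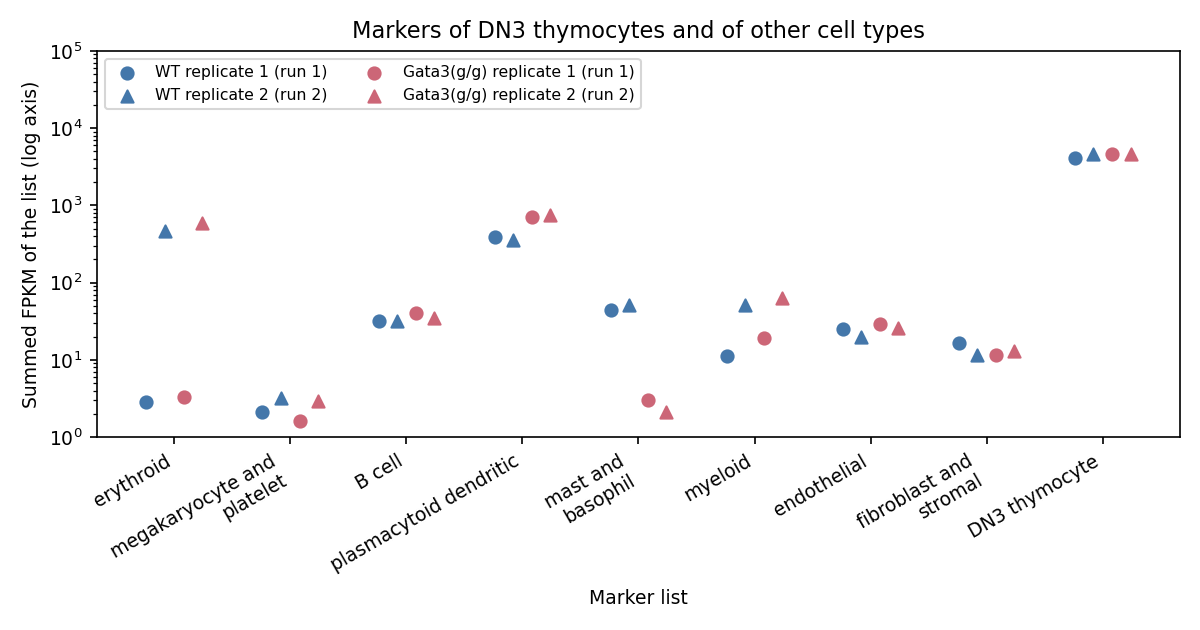
Summed FPKM (log axis) of the marker lists in the 4 libraries. The erythroid and myeloid lists are high in the 2 run 2 libraries of either genotype, the mast and basophil list is low in both Gata3(g/g) libraries, and the DN3 list lies between 4140 and 4640 FPKM throughout.

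Among the 18 partners of the LMO2 complex and of the stem cell factors that bind with it, 16 were tested. With the block 1 rose, 1 fell and 14 did not pass by edgeR, beside 6.90% of all genes called. Limma with the block called 0 of them, and 16 of all 10224 genes. On genotype alone 0 passed, 2 having an unadjusted p under 0.05, beside 3.84% of all genes. The one that rose was Gata3 (0.83 ± 0.146, SE), and the one that fell was Ssbp4, which encodes a single-stranded DNA binding protein that protects LDB1 (−0.51 ± 0.136, SE, edgeR adjusted p = 0.0301). Ssbp3, on the same list, stood higher in Gata3(g/g) without passing, at 104 and 84.7 FPKM in WT and 139 and 117 FPKM in Gata3(g/g). Its log2 fold change was 0.45 ± 0.153 (SE, edgeR adjusted p = 0.094), and that of Ssbp2 was 0.06. The median log2 fold change with the block was 0.05, against 0.01 for all genes tested. Ldb1 stood at 26.5 and 32.5 FPKM in WT and 25.2 and 25.1 FPKM in Gata3(g/g). The E protein genes Tcf3 and Tcf12, whose products pair with TAL1 and LYL1, had log2 fold changes of −0.09 and 0.19, Runx1 of 0.10 and Erg of 0.27, with none passing. Gata2, the progenitor GATA factor, was at most 0.156 FPKM. In each library Ldb1 was more abundant per length than Lmo2, Lyl1 and Tal1.

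A list of 26 other genes active in progenitors held 15 that were tested. Several of them were well expressed in these DN3 libraries, such as Bmi1 (19.8 to 33 FPKM), Ly6a (24.4 to 62.1 FPKM) and Sox4 (7.43 to 10.6 FPKM), so the list is not one of silent genes. With the block 8 rose, 2 fell and 5 did not pass by edgeR, beside the 6.90% of all genes called. Limma with the block called 0 of them, and 16 of all 10224 genes. On genotype alone 0 passed by edgeR, 8 having an unadjusted p under 0.05, beside 3.84% of all genes. DESeq2 on genotype alone called 4 of them, and 88 of all 10224 genes. The homeobox gene Hoxa5 stood at 2.18 and 1.69 FPKM in WT and 5.85 and 6.51 FPKM in Gata3(g/g) and rose by 1.67 ± 0.223 (SE) on the log2 scale (edgeR adjusted p = 0.000129). Mef2c (2.19), Hoxa7 (1.29), Cd44 (1.23), Sfpi1, the older symbol of the PU.1 gene (1.17), Ly6a (1.05), Id2 (0.77) and Mycn (0.65) rose as well. Mef2c stood at 0.42 and 0.304 FPKM in WT and 1.56 and 1.76 FPKM in Gata3(g/g). It thus reached the mean of 1 FPKM only through the group where it was high, and the counts and median of this list include it. Id2 differed by 1.48 in run 2 and 0.20 in run 1, so its size rests on the run 2 pair, in which WT replicate 2 was at 4.18 FPKM and the other 3 libraries at 11.8 or more. Zfpm1, the gene of the GATA partner protein FOG-1, fell (−0.75), and so did the Ikaros family gene Ikzf2 (−0.98). The receptor gene Kit had a log2 fold change of 0.20 (edgeR adjusted p = 0.460), and Flt3, the cytokine receptor gene of earlier progenitors, was at most 0.188 FPKM. The median of this list was 0.65 with the block, against 0.01 for all genes tested. This describes a list chosen with earlier results of these data known.

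Of 20 cofactors and relatives of BCL11A, GFI1B, NFE2, MEIS1 and HHEX, 16 were tested. With the block 1 rose, 2 fell and 13 did not pass by edgeR, beside 6.90% of all genes called. Limma with the block called 0 of them, and 16 of all 10224 genes. On genotype alone 0 passed, with 0 at an unadjusted p under 0.05, beside 3.84% of all genes. Nfe2l2, the NFE2 relative of the oxidative stress response, rose (0.48 ± 0.140, SE, edgeR adjusted p = 0.0487). Tle4, which encodes a Groucho corepressor of the family that binds HHEX, fell (−0.66 ± 0.137, SE). The small Maf gene Maff fell (−1.05), mostly by the run 1 pair (−1.64, and −0.20 for run 2), since WT replicate 1 stood at 9.41 FPKM and the other libraries at or below 2.96. Bcl11b, the T-lineage paralog of Bcl11a, stood at 51.2 and 58.1 FPKM in WT and 55.6 and 61.1 FPKM in Gata3(g/g). Gfi1, the paralog of Gfi1b, stood between 16.0 and 17.9 FPKM in all 4 libraries. In each library the T-lineage paralog was thus the more abundant one per length.

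For the 3 members with most fragments, the genes whose log2 CPM over the 4 libraries lay nearest after centring were named from 10219 others. Nearest to Nfe2 were Slc26a11 (distance 0.081), Sgk3 (0.116) and Cd53 (0.129). Near Bcl11a were Cep170 (0.0499) and Gm20300 (0.0605), and nearest to Lyl1 were Parp8 (0.0483), Birc3 (0.0627) and Dap (0.119). With 4 libraries this likeness is a description only.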

How the data were processed

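Total RNA of 4 libraries was prepared on columns with DNase treatment and made into libraries with a NuGEN Encore Complete kit, per the labels' protocols. The submitters' processing notes name Cuffdiff 2.1.1, TopHat2 2.0.8b and Bowtie2 2.1.0, and the mm10 build. The annotation, the use of strand and any filters were not stated. Per the file headers, the authors deposited an estimated count of fragments (raw, before scaling) and an FPKM value per gene and library, and a comparison table that holds each genotype's FPKM with p-value, q-value and log2 fold change. From the 23285 genes, 3 with a locus over the depth limit of Cuffdiff were dropped, while 5 failed estimates stayed in as deposited. Counts were rounded, 97.7% to 98.9% of them being within 0.01 of a whole number already.

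Genes with a mean of at least 1 FPKM (10224) were tested with edgeR 4.0.16 (R 4.3.3, quasi-likelihood F test, TMM scaling, two-sided, Benjamini-Hochberg at 0.05) on genotype alone, with 2 residual degrees of freedom. The sequence identifiers in the labels put same-numbered replicates in 1 run, and the run differences of the genotypes correlated at 0.754 across genes, so the number pairs the samples. The model with the replicate block keeps 1 residual degree of freedom and leans on the spread pooled over genes. DESeq2 1.42.0, limma 3.58.1 on log2(FPKM + 1), other scalings and filters and leaving out each library were alternatives. SE is the unshrunken log2 fold change over the square root of F. A positive value means higher in Gata3(g/g). On simulated counts for 10224 genes of this comparison, with run effects, edgeR with the block recovered 96% of 2-fold changes with 8 false calls. Without the block edgeR recovered 0%. Limma with the block recovered 98% of all 200 changes there. On the deposited libraries it called 16 genes, against 705 by edgeR with the block. Whether the spread in the simulated counts matched that of these libraries was not tested. Within-run differences use a prior count of 2, and counting intervals are 95% exact binomial.

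Members and lists were chosen with earlier results of these data known. All members were named. A few other genes that the rules would name are not reported here. Of the other lists, genes called with or without the block and 12 genes set by name were eligible. Ssbp2, Ssbp3, Bmi1 and Sox4 were named in addition. Gene positions are from the authors' table, written from 1.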

Additional observations from a re-analysis of the deposited data

How the results depend on the processing

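The number of calls depended on the replicate block, the method and the filter. Genes called numbered 0 on genotype alone, 705 with the replicate block, 88 by DESeq2 and 417 by DESeq2 with the block, 5 by limma and 16 by limma with the block (4 at a pseudocount of 0.1), 674 with the block scaled to total fragments only, 58 with no filter and 988 with no filter and the block, 348 with the block from a mean of 5 FPKM up, and 715 with the block at 10 fragments in 2 libraries. With total fragments only, 68.8% of calls were higher in Gata3(g/g), against 56.6%. Leaving out 1 library on genotype alone gave 1 to 11 genes and 0 members. Members called numbered 1 with the block by edgeR, DESeq2, total fragments only and a mean FPKM of at least 5, and 2 with the block under no filter or 10 fragments in 2 libraries. For these block fits in the order edgeR, DESeq2, total fragments, mean FPKM of at least 5, no filter and 10 fragments, partner genes called were 2, 1, 1, 1, 3 and 2, and progenitor genes called were 10, 6, 11, 4, 10 and 9. Cofactor genes called were 3, 1, 3, 2 and 2 in the same order, with 0 at a mean FPKM of at least 5. By limma with the block, at either pseudocount, 0 members and 0 partner, progenitor and cofactor genes were called. Progenitor genes called were also 4 by DESeq2 and 1 with no filter, both without the block. In edgeR the block changed the calls of Nfe2 and Cd34 and of no other member, whereas limma did not call Nfe2 with the block.

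Of 82 member values under other settings with all libraries, 80 kept their direction, and Meis1 turned to 0.41 with the block and no filter and 0.26 with the block at 10 fragments. Leaving out 1 library, which unbalances the runs, moved Tal1 between −1.73 and 0.75, Bcl11a between −0.05 and 0.61, Gfi1b between −1.38 and 1.04, Meis1 between −1.29 and 2.91 and Lmo1 between −0.34 and 0.97. Lyl1 (0.49 to 0.66), Hhex (0.53 to 1.03), Nfe2 (0.64 to 1.08), Lmo2 (0.34 to 1.96) and Cd34 (0.64 to 2.06) kept their direction. Depth limits Gfi1b and Meis1, at 21 fragments or fewer in each library.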
